A study of Mus musculus with 12 samples.

Results

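C-type natriuretic peptide (CNP) is a short secreted peptide that acts on growing cartilage. It binds natriuretic peptide receptor 2, a membrane guanylyl cyclase that makes the second messenger cyclic GMP (cGMP) inside the cell. cGMP then activates cGMP-dependent protein kinases, of which type II is known in growth plate chondrocytes, and the signal opposes the branch that runs from fibroblast growth factor receptor 3 to MAP kinases. In mice, loss of the peptide, of its cyclase receptor or of the type II kinase shortens the long bones.

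The genes described here are 6 of the 23575 in the RNA-seq tables: the ligand Nppc, the receptors Npr1, Npr2 and Npr3, and the kinases Prkg1 and Prkg2. Each was taken as the RefSeq transcript with the highest total count, and 4 of the 6 had enough counts to be tested, among 14323 genes tested in all. The samples were pellets, which are packed 3-dimensional cultures, of primary articular chondrocytes from 5-to-6-day-old C57BL/6J mouse pups, isolated from the femoral head and tibial plateaus. The cells were first expanded as a monolayer in DMEM/F12 with serum, and both groups were then pelleted in that medium with ascorbic acid and ITS. The Week 1 group was harvested after 7 days in pellets and the Week 3 group after 21 days. Neither group carried a transgene, deletion or drug treatment in the labels. Each week had 3 RNA-seq libraries and 3 libraries of enhanced reduced representation bisulfite sequencing (ERRBS), which reads methylation at CpG-rich parts of the genome. How many pups went into a library is not stated, nor whether replicates were separate cultures, and the p-values therefore reflect only library-to-library spread, which may be technical.

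Gene totals ran from 14361717 to 19774665 counts per RNA library. Cartilage markers were abundant: 8 of 8 were measured, with a summed level of 13190 to 26230 CPM (counts scaled to the library total) at Week 1 and 28120 to 30890 CPM at Week 3. Week 1 replicate 2 gave the value of 13190 CPM and stood apart from the other 2 libraries of its week, which were at 24610 and 26230 CPM. All 8 hypertrophic chondrocyte markers were higher at Week 3, with a sum of 890.0 to 950.8 CPM at Week 1 and 15470 to 20730 CPM at Week 3. Endothelial markers were low, with a sum of at most 12.83 CPM in any library, and Emcn, which marks endothelial cells, had a single count in all. Of 3 tested, 0 were higher and 2 were lower at Week 3, beside 17.8% of all genes that were lower. These were Flt1 at 0.612 times (adjusted p 0.0143) and Egfl7 at 0.667 times its Week 1 level (0.0494). Fibroblast markers summed to 14300 to 15300 CPM at Week 1 and 36120 to 42510 CPM at Week 3. Col1a2 alone averaged 4948 and 22490 CPM. Of the 7, 4 were higher, beside 19.7% of all genes tested: Col1a1 (4.41-fold), Col1a2 (4.54-fold), Fap (3.52-fold) and Thy1 (2.24-fold). The others did not pass: Col3a1 (1.16-fold, adjusted p 0.151), Pdgfra (1.18-fold, 0.291) and Dpt (0.54 times, 0.254). Of 6 macrophage and leukocyte markers tested, 2 were lower at Week 3, Ptprc at 0.340 times and Cd14 at 0.610 times its Week 1 level, and 0 were higher; the sums ran from 28.35 to 72.72 CPM and from 12.14 to 49.59 CPM. The part of such cells in the members' values was not tested. Adipocyte markers summed to 205.2 CPM in Week 1 replicate 2 and 114.2 CPM in Week 3 replicate 2, against 28.72 to 72.09 CPM in the other 4 libraries.

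Nppc encodes the precursor of CNP. Its transcript NM_010933 lies on chr1:86666293-86670573 (mm10, minus strand, 3 exons). It had 3, 1 and 3 counts in Week 1 replicates 1, 2 and 3, and 0, 0 and 1 counts at Week 3. The ligand was therefore close to the limit of detection in every library, where a count of 0 still allows 3 counts. The pooled counts were 7 at Week 1 and 1 at Week 3, a ratio of 0.138 with an exact 95% interval of 0.00306 to 1.07 that covers counting error only. That interval includes no change, and the gene was too low for the main test. With no filter on low counts, edgeR gave an adjusted p of 0.152, and DESeq2 gave an unadjusted p of 0.139 with no adjusted value.

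Npr1 encodes natriuretic peptide receptor 1, the guanylyl cyclase that responds to the atrial and B-type peptides. Its transcript NM_008727 spans chr3:90450592-90465866 on the minus strand. The libraries held 5, 3 and 2 counts at Week 1 and 4, 10 and 2 counts at Week 3, so the weeks overlapped. The ratio of the pooled counts, 16 against 10, was 1.54 (exact 95% interval 0.659 to 3.80), and no difference was detectable at this depth. Without the filter the adjusted p was 0.538 in edgeR and 0.713 in DESeq2.

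Npr2 encodes natriuretic peptide receptor 2, the receptor through which CNP raises cGMP. Its transcript NM_173788 has 22 exons on chr4:43631935-43651437 (plus strand). CPM, scaled by the trimmed mean of M values (TMM), was 334.5, 236.1 and 331.8 at Week 1 and 462.6, 416.8 and 457.4 at Week 3. Every Week 3 library was above every Week 1 library, and Week 1 replicate 2, the library with low cartilage markers, was the lowest. The mean rose from 300.8 ± 56.1 to 445.6 ± 25.1 CPM (SD, n = 3), a log2 change of 0.57 (SE 0.13) and an adjusted p of 0.0117. Leaving out Week 1 replicate 2 gave a log2 change of 0.42 with an adjusted p of 0.000288. The part that this library's low marker level played in the change was not tested. Exons of Spag8 on the opposite strand cover 2.80% of the transcript, and reads from the strands cannot be told apart there.

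Of all 14323 genes, 37.4% passed the test in either direction and 19.7% passed as higher at Week 3. Among the 4 tested members, 3 were higher and 0 were lower. The CPM values of the weeks did not overlap for these 3 members, which was also the case for 51.4% of all genes. With so few members the counts are given beside these shares as a description. The pellets are bulk samples, in which fewer cells of a type and less RNA per cell cannot be told apart.

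Npr3 encodes natriuretic peptide receptor 3, called the clearance receptor because it takes up the peptides and has no guanylyl cyclase domain. The transcript counted, NM_001039181, lies on chr15:11839896-11905674 (minus strand, 8 exons), and the other Npr3 transcript had identical counts in all 6 libraries. The values were 40.38, 30.47 and 34.09 CPM at Week 1 and 38.20, 41.47 and 35.99 CPM at Week 3. The weeks overlapped, with means of 34.98 ± 5.02 and 38.56 ± 2.76 CPM (SD, n = 3). The log2 difference was 0.14 (SE 0.10) with an adjusted p of 0.314, and without Week 1 replicate 2 it was 0.05 (adjusted p 0.702).

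Prkg1 encodes the type I cGMP-dependent kinase, best known from smooth muscle and platelets. NM_011160, its transcript variant 2, spans more than a megabase at chr19:30564487-31664370 (minus strand). The libraries had 56.46, 54.38 and 64.06 CPM at Week 1 and 132.7, 139.7 and 126.8 CPM at Week 3. All Week 3 libraries were above all Week 1 libraries, with little spread within a week. The mean rose from 58.30 ± 5.09 to 133.1 ± 6.49 CPM (SD, n = 3), which is 2.28-fold, a log2 change of 1.19 (SE 0.07, adjusted p 3.07e-06). Smooth muscle and pericyte markers moved in the same samples: of 9 measured and 8 tested, 5 were higher and 1 was lower at Week 3. Together these were 75.0% of those tested, beside 37.4% of all genes. The sum of the 9 lay between 266.6 and 366.1 CPM at Week 1 and between 726.1 and 806.7 CPM at Week 3. Most of that sum was Cspg4, a proteoglycan gene, at 222.7 and 517.9 CPM (2.33-fold, adjusted p 0.000131). Acta2, smooth muscle actin, rose 4.76-fold, from 19.18 to 90.59 CPM (adjusted p 0.00385), Tagln 3.47-fold (9.93e-07), Mylk 2.50-fold (0.000192) and Cnn1 1.82-fold (0.015), although Pcsk7 on the opposite strand covers 85.8% of the Tagln transcript. Notch3 fell to 0.618 times its Week 1 level (adjusted p 0.00636). Myh11, the myosin that defines mature smooth muscle, was near 0 at 1.08 and 0.809 CPM, Des at 0.902 and 1.55 CPM, and the pericyte gene Rgs5 at 0.351 and 0.258 CPM. The part of such cells in the Prkg1 values was not tested.

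The table counts 2 Prkg1 transcripts that overlap. Variant 1, NM_001013833, starts upstream at position 31765033 of chromosome 19. Variant 2 exceeded variant 1 by 42, 35 and 49 counts at Week 1 and by 69, 83 and 55 counts at Week 3, for replicates 1, 2 and 3. This excess was 4.50, 3.74 and 5.16% of the variant 2 counts at Week 1 and 3.4, 3.18 and 2.65% at Week 3. This is a net difference and does not show how many counts belong to either transcript alone, so the change is given for the gene and was not assigned to a start site.

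Prkg2 encodes the type II cGMP-dependent kinase, a membrane-bound enzyme needed for normal growth plate cartilage. Its transcript NM_008926 is on chr5:98929773-99037079 (minus strand, 19 exons). The gene had 53.92, 52.82 and 53.93 CPM at Week 1 and 153.4, 158.5 and 162.5 CPM at Week 3. The weeks were far apart relative to the spread, which was 0.641 CPM (SD, n = 3) at Week 1 and 4.56 CPM at Week 3. The mean rose 2.95-fold, from 53.56 to 158.1 CPM, a log2 change of 1.56 (SE 0.05, adjusted p 9.44e-08). Without Week 1 replicate 2 the log2 change was 1.55 (adjusted p 2.36e-08), and for Prkg1 it was 1.14 (adjusted p 1.04e-06).

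**Figure D1:**
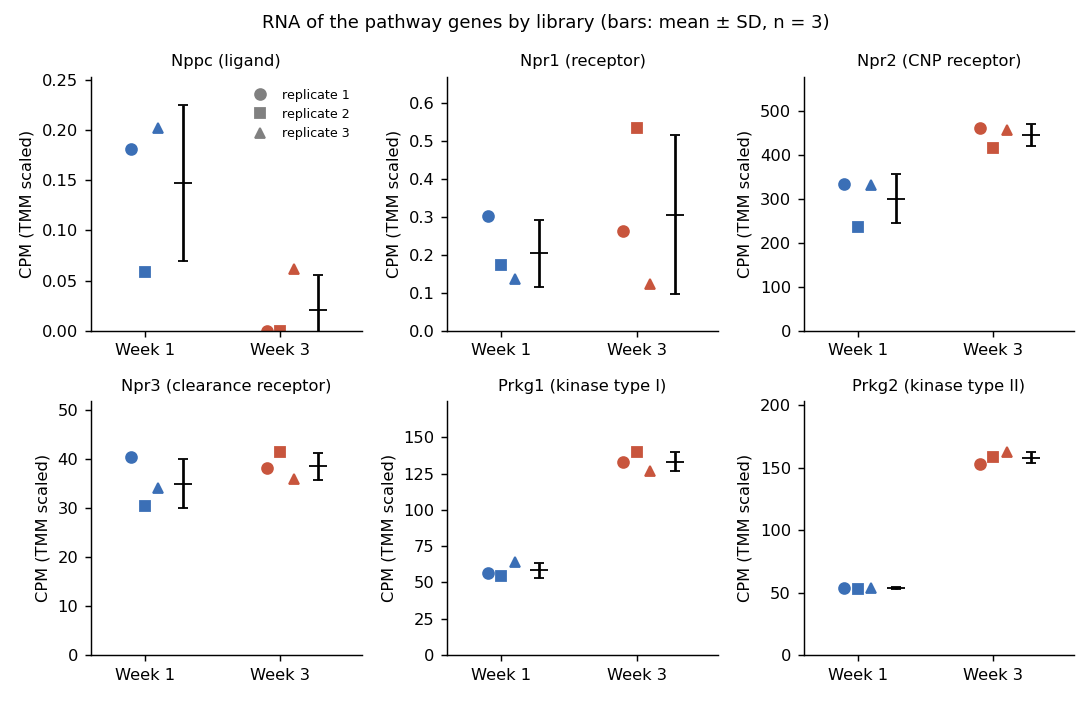
TMM-scaled CPM (y axis, from 0, a different range in each panel) of the 6 genes in the 3 libraries of Week 1 and the 3 of Week 3; points are libraries, and the bar beside them is the mean ± SD, cut off at 0 for Nppc. Npr2, Prkg1 and Prkg2 have every Week 3 library above every Week 1 library, Npr3 overlaps, and Nppc and Npr1 stay under 1 CPM.

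Levels can be compared between genes only per length of transcript. On the scale of CPM per kilobase, Npr2 was the highest of the members in every library, with a mean of 78.08 ± 14.6 at Week 1 and 115.6 ± 6.51 at Week 3 (SD, n = 3). Prkg2 had 11.4 ± 0.136 and 33.68 ± 0.972 CPM per kilobase, and Prkg1 had 8.45 ± 0.738 and 19.28 ± 0.941. Npr3 had 5.05 ± 0.724 and 5.57 ± 0.399. The order Npr2, Prkg2, Prkg1, Npr3 held in all 6 libraries with no overlap of neighbours within a week. Nppc and Npr1 came last, at 0.141 ± 0.0749 and 0.0501 ± 0.0215 CPM per kilobase at Week 1 and 0.0195 ± 0.0338 and 0.0753 ± 0.0517 at Week 3, and that pair did not keep its order. Among 14039 tested genes with a known transcript length, the mean level of Npr2 was above 95.9% of genes at Week 1 and 97.4% at Week 3. Prkg2 moved from above 60.3% to above 86.9% of genes, Prkg1 from 51.7% to 75.1%, and Npr3 from 38.6% to 40.1%.

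Ratios within a library do not depend on its total. The clearance receptor Npr3 stood to the cyclase receptor Npr2, on the scale of CPM per kilobase, at 0.0672, 0.0718 and 0.0572 at Week 1 and at 0.0460, 0.0554 and 0.0438 at Week 3. RNA of the cyclase receptor was therefore in excess in every library, by 15.4 ± 1.85 times at Week 1 and 20.9 ± 2.51 times at Week 3 (SD, n = 3). Protein was not measured. The kinase ratio, Prkg2 to Prkg1, was 1.40, 1.43 and 1.24 at Week 1 and 1.70, 1.67 and 1.88 at Week 3. Per kilobase, RNA of type II thus exceeded that of type I in each library. In CPM without division by length, Prkg1 was the higher at Week 1, with a mean of 58.30 against 53.56. The Week 1 order therefore rests on the annotated transcript lengths, 6901 bases for Prkg1 and 4696 for Prkg2. The log2 difference between weeks was -0.44 for the receptor ratio and 0.37 for the kinase ratio, and in neither did the weeks overlap. The exact two-sided permutation test gave p = 0.1 for each (adjusted p 0.1 over the 2 ratios), the smallest value that 3 against 3 libraries allow. That test ignores the replicate numbers. With replicate number as a block, the permutation p was 0.25 for each ratio, again the smallest value that this design allows. The blocked test therefore could not give stronger or weaker evidence than the order of the libraries already shows.

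**Figure D2:**
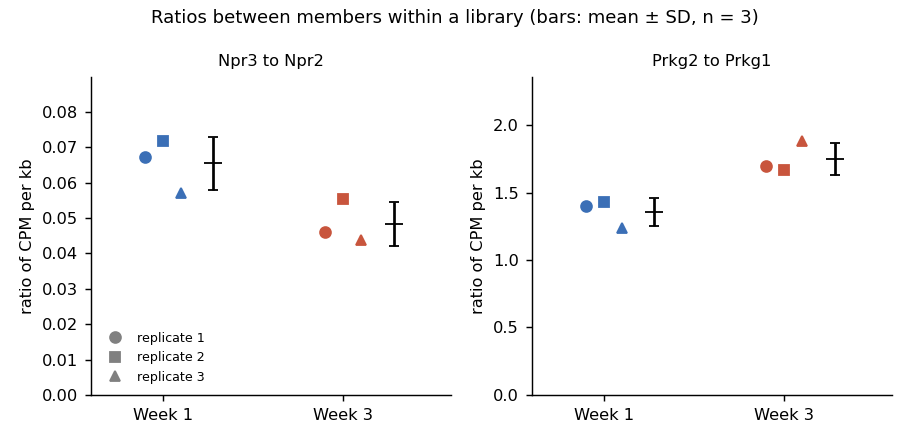
Ratio of CPM per kilobase within each library (y axis, from 0), Npr3 to Npr2 on the left and Prkg2 to Prkg1 on the right; points are libraries and bars the mean ± SD. The receptor ratio lies at 0.0572 to 0.0718 at Week 1 and 0.0438 to 0.0554 at Week 3, and the kinase ratio at 1.24 to 1.43 and 1.67 to 1.88.

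For each tested member, the genes closest in pattern were found as the smallest root mean square difference of log2 CPM, centred over the 6 libraries, among 11071 genes with a mean of at least 5 CPM. Npr2 was closest to Raph1 (0.036) and Samhd1 (0.051), and Npr3 to Dagla (0.032) and Kctd9 (0.036). Prkg1 was closest to Erg (0.045), an ETS transcription factor, and to Hapln1 (0.060), the link protein of cartilage proteoglycan. The mean of Hapln1 was 1314 CPM in the Week 1 libraries and 2911 CPM in those of Week 3. Prkg2 was closest to Pcolce2 (0.069), a procollagen processing enhancer, and to Slc25a13 (0.071). These likenesses describe 6 libraries of 2 groups and carry no test.

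Of 69 further genes in 7 lists around the pathway, all were measured and 52 were tested. At Week 3, 18 were higher and 6 were lower, together 46.2% of those tested, beside 37.4% of all genes. The 18 include Gucy1a1, which entered the test only through its Week 3 counts. The count of genes higher was 13 to 18 when any 1 library was left out, and the count lower was 5 to 7. With replicate number as a block, 20 were higher and 8 were lower.

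Among the other ligands, Ostn encodes osteocrin, a secreted protein that binds the clearance receptor. Its level was 7.798, 9.809 and 8.370 CPM at Week 1 and 10.99, 11.93 and 10.49 CPM at Week 3, without overlap. The fold change was 1.29 (adjusted p 0.0369), and the call was lost in DESeq2 (adjusted p 0.0905) and, in edgeR, whenever a library other than Week 1 replicate 2 was left out (adjusted p 0.0537 to 0.126). An annotated gene on the opposite strand covers 14.5% of the Ostn transcript. Nppa, the atrial peptide gene, was too low for the main test, with 10 counts at Week 1 and 26 at Week 3 over 3 libraries each. The ratio was 2.51, with an exact 95% interval of 1.17 to 5.83 that excludes no change but covers counting error only. With no filter, the adjusted p was 0.103 in edgeR and 0.245 in DESeq2. Nppb, the B-type peptide gene, had 0 counts in all 6 libraries, which allows up to 0.0618 CPM at Week 1 and 0.0596 CPM at Week 3.

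Of 6 genes for peptide processing and breakdown, 1 was higher and 0 were lower, 16.7% beside 37.4% of all genes. Mme encodes neprilysin, a membrane protease that degrades natriuretic peptides. It had 87.35, 124.4 and 101.8 CPM at Week 1 and 269.2, 391.7 and 305.5 CPM at Week 3. The libraries of the weeks did not overlap, and Mme rose 3.08-fold (adjusted p 0.000781). Furin, a protease that cuts the CNP precursor, averaged 57.61 and 70.10 CPM (adjusted p 0.0998), and passed with replicate number as a block (adjusted p 0.00772) or once Week 1 replicate 1 was dropped (adjusted p 0.0101). Ide, another peptide-degrading protease, averaged 211.0 ± 7.53 and 217.1 ± 14.0 CPM (SD, n = 3; adjusted p 0.627). Ece1 had adjusted p 0.643, and Corin and Dpp4 were under 2 CPM in every library.

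Among the 7 other guanylyl cyclases, 2 were tested and both were higher at Week 3. Of all genes 19.7% were higher, but 1 of the 2, Gucy1a1, could only come out higher. The count is therefore a description and cannot be set against that share. Soluble guanylyl cyclase, the nitric oxide receptor, is a dimer of an alpha and a beta subunit. The alpha subunit gene Gucy1a1 had 1 count over the 3 Week 1 libraries and 210 over the 3 Week 3 libraries, a ratio of 203 (exact 95% interval 36.0 to 8040, counting error only; adjusted p 2.48e-05). It reached 3.925, 5.566 and 2.806 CPM at Week 3. Gucy1a1 passed the filter on low counts only through these libraries, which fixed the direction of its change in advance. Gucy1a2 rose 2.32-fold to 2.09 ± 0.583 CPM (SD, n = 3; adjusted p 0.021), which no longer passed when Week 1 replicate 1 (adjusted p 0.0732), Week 1 replicate 3 (0.0633) or, at Week 3, replicate 2 (0.0849) was left out. The beta subunit gene Gucy1b1 had 2 counts at Week 1 and 16 at Week 3, a ratio of 7.72 (exact 95% interval 1.81 to 69.2), and was too low for the main test. With no filter it passed in edgeR (adjusted p 0.0324) and did not in DESeq2 (0.118). Gucy2d and Gucy2f had 0 counts in all 6 libraries.

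Phosphodiesterases break down cGMP, cAMP or both. Of 16 genes, 12 were tested, 4 were higher and 2 were lower. Pde11a, which hydrolyses both nucleotides, had 0.846, 1.05 and 1.35 CPM at Week 1 and 11.71, 16.48 and 11.22 CPM at Week 3. It rose 12.2-fold (adjusted p 3.93e-06). Pde5a, the cGMP-specific target of sildenafil, rose 1.40-fold from 8.56 to 11.97 CPM (adjusted p 0.0135). The calcium-regulated Pde1b rose 1.30-fold (adjusted p 0.011) and Pde1c rose 1.69-fold (adjusted p 0.0278). Pde3a fell to 0.726 times its Week 1 level (adjusted p 0.00418) and Pde3b to 0.724 times (adjusted p 0.0434); these encode the cAMP phosphodiesterases that cGMP inhibits. An annotated gene on the opposite strand covers 11.8% of the Pde3a transcript. The count was 2 higher and 2 lower without Week 1 replicate 1, where Pde1c (adjusted p 0.0909) and Pde5a (0.0536) were lost. It was 1 and 1 without Week 1 replicate 3, where Pde1b (0.0521), Pde1c (0.102), Pde5a (0.0504) and Pde3b (0.0811) were lost. Dropping Week 1 replicate 2 (0.106), replicate 1 of Week 3 (0.122) or replicate 3 of Week 3 (0.124) also ended the Pde3b call, as did using no filter on low counts (0.07), and dropping Week 3 replicate 2 ended that of Pde1c (0.111).

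The cGMP exporters Abcc4 and Abcc5 were the 2 tested of 7 genes for export and cGMP-gated channels, and 0 passed. Abcc4 averaged 54.54 ± 8.10 and 48.93 ± 6.28 CPM (SD, n = 3; adjusted p 0.341), and Abcc5 averaged 79.00 ± 4.35 and 79.90 ± 5.38 CPM (adjusted p 0.865).

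Of 14 substrates and partners of the cGMP-dependent kinases, 13 were tested, 6 were higher and 2 were lower. Together these were 61.5% of those tested, beside 37.4% of all genes. Kcnma1, the large-conductance calcium-activated potassium channel, rose 3.32-fold, from 23.09, 17.30 and 22.75 CPM to 62.28, 83.70 and 63.07 CPM (adjusted p 0.000102). Mrvi1 encodes a protein that ties the type I kinase to the inositol trisphosphate receptor, and it rose 2.64-fold (adjusted p 0.00507). Itpr1, which encodes that receptor, rose 1.33-fold, from 201.7 ± 9.63 to 268.5 ± 17.6 CPM (SD, n = 3; adjusted p 0.000855). Pln, the phospholamban gene, rose 1.75-fold (adjusted p 0.00081), Gtf2i 1.72-fold (9.55e-05) and the kinase gene Gsk3b 1.21-fold (0.00498). Hspb6, a small heat shock protein, fell to 0.720 times (adjusted p 0.00124) and Septin3, a type I kinase substrate of neurons, to 0.506 times (0.000697). Several of these genes are known from smooth muscle, whose markers are given above. The actin regulator Vasp averaged 41.71 ± 2.56 and 42.78 ± 2.98 CPM (SD, n = 3; adjusted p 0.742). Ppp1r12a, the myosin phosphatase subunit, averaged 163.7 ± 11.9 and 162.7 ± 8.05 CPM (adjusted p 0.936).

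In the branch from fibroblast growth factor receptor 3 to MAP kinases, 16 of 16 genes were tested, 4 were higher and 2 were lower. Together these were 37.5% of the list, near the 37.4% of all genes. The receptor gene Fgfr3 had 228.4, 155.8 and 222.9 CPM at Week 1 and 501.2, 464.7 and 448.5 CPM at Week 3. It rose 2.33-fold (adjusted p 0.000594), with Week 1 replicate 2 the lowest library, as for Npr2. Mapk3, which encodes the MAP kinase ERK1, rose 1.48-fold (adjusted p 0.00965). Dusp6 and Spry2 encode feedback inhibitors that MAP kinase signalling induces. Dusp6 fell from 37.60, 45.91 and 32.13 CPM to 18.05, 16.32 and 15.86 CPM, which is 0.433 times (adjusted p 0.000122), and 22.4% of its transcript overlaps a gene on the opposite strand. Spry2 fell to 0.551 times its Week 1 level (adjusted p 0.00131). Spry4, another feedback inhibitor in the list, averaged 6.81 ± 0.228 and 7.40 ± 0.812 CPM (SD, n = 3; adjusted p 0.478). Braf, the gene of this list with the most CPM among those that did not pass, averaged 270.6 ± 9.54 and 250.9 ± 9.40 CPM (SD, n = 3; adjusted p 0.144).

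**Figure D3:**
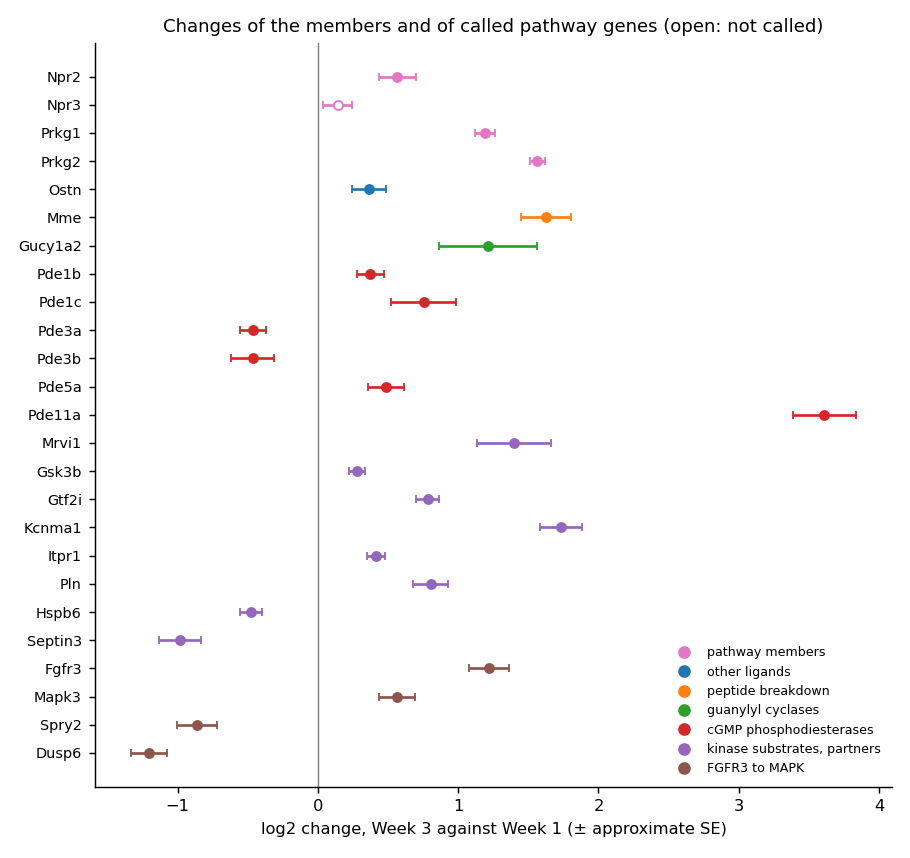
Log2 change at Week 3 against Week 1 (x axis) with its approximate standard error, for the 4 tested members and the pathway genes that passed the test, coloured by list; the open point did not pass. Gucy1a1 is left out because it had 1 count at Week 1, and genes not reported here are not drawn; Pde11a, at 3.61, lies farthest from 0 among the genes drawn, and Dusp6, at -1.21, is the lowest.

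DNA methylation at the genes was read at CpG cytosines with at least 10 reads in all 6 ERRBS libraries, of which there were 724670 in the genome. ERRBS fragments are cut at CCGG, so coverage clusters around that motif. The sequences of 3 starts are shown because they hold the ligand, the main receptor and the kinase with a second start: the 250 bases before each start (RefSeq, GRCm38.p6, 5′ to 3′ on the gene's strand), with the CpGs read in all 6 libraries in capitals. They are chr1:86670574-86670823 on the minus strand for Nppc, chr4:43631685-43631934 on the plus strand for Npr2 and chr19:31664371-31664620 on the minus strand for variant 2 of Prkg1.
Nppc: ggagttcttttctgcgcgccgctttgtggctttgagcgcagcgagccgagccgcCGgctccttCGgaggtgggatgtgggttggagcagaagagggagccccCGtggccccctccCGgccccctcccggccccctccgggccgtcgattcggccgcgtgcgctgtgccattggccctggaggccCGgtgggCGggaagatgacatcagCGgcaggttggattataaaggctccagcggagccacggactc
Npr2: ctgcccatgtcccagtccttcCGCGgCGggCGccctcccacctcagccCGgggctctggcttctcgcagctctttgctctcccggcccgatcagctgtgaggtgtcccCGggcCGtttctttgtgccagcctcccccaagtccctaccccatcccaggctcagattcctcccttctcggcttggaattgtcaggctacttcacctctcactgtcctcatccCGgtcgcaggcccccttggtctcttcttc
Prkg1: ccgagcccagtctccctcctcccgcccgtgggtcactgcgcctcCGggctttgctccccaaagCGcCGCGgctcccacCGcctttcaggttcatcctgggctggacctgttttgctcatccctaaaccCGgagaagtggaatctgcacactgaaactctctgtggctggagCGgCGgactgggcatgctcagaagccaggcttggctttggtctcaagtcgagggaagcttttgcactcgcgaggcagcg
The Nppc window holds 24 CpGs, of which 7 were read, Npr2 holds 13 with 8 read, and Prkg1 holds 16 with 8 read. The median over the same 250 bases of 32851 RefSeq promoters is 6 CpGs. CCGG occurs 5 times in the Nppc window, 4 times in that of Npr2 and 2 times in that of Prkg1, and is found in 47.1% of all promoters. GGGCGG, the GC box, occurs once in the Nppc and once in the Prkg1 window and in 32.7% of promoters. TATAAA occurs once in the Nppc window, close to its start, and in 12.4% of promoters. All motifs were searched on both strands, no match overlapped one of another motif in these windows, and matches are letters only and show no binding.

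At the CpGs printed, the ligand start was nearly free of methylation. The share of methylated reads was 0, 0.150 and 0.485% at Week 1, over 524, 665 and 206 reads, and 0, 6.25 and 0% at Week 3, over 329, 224 and 216 reads. The single raised value belonged to Week 3 replicate 2. For Npr2 the shares were 0.401, 2.0 and 1.59% at Week 1 and 0% in all 3 libraries of Week 3, where 264, 151 and 192 reads were counted. For Prkg1 they were 0, 2.41 and 2.54% at Week 1 and 1.16, 0 and 0% at Week 3.

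Over the wider promoter window, from 1000 bases before to 500 after the start, all 6 genes were covered, by 15 to 51 cytosines. Nppc was methylated at 0.556, 0.619 and 0.258% of reads at Week 1 and 0.334, 2.34 and 0.644% at Week 3. The ligand gene, near 0 in RNA, was thus read as almost wholly unmethylated at its start. Promoters under 5% made up 57.1% of 1082 covered promoters of genes with 8 counts or fewer in all libraries, the Nppc level, and 90.9% of 10697 promoters of tested genes. Npr1, the other gene near 0, was at 0.150, 2.83 and 0% at Week 1 and 0.899, 0 and 0.548% at Week 3.

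Npr2 had the most promoter methylation of the members, 4.32, 3.46 and 1.94% at Week 1 and 4.96, 5.91 and 2.38% at Week 3. The weeks overlapped, and the methylated reads lay mainly after the start: the kilobase from 934 bases before to 65 after it was at 0 to 0.674% in the 6 libraries, and the kilobase from 66 to 1065 bases after it was at 10.6 to 18.5%. Npr3 had 0.709, 1.90 and 1.78% at Week 1 and 1.17, 0 and 0.484% at Week 3. Prkg1 had 0.166, 1.33 and 1.83% at Week 1 and 0.603, 0 and 0.676% at Week 3. The upstream start of Prkg1 variant 1 was as low, at 0.617 ± 0.349% and 0.947 ± 0.993% (SD, n = 3).

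Prkg2, the kinase gene with the larger rise in RNA, had 0.414, 0.579 and 0.314% at Week 1 and 1.08, 0.649 and 0.827% at Week 3 over 42 cytosines. Its weeks did not overlap, but the difference of the means was 0.414 percentage points, and the quasi-binomial test gave an adjusted p of 0.744. None of the 6 promoters passed (adjusted p 0.573 to 0.784), in a genome where 0 of 12354 promoters were called (0%), with 1034 at an unadjusted p under 0.05. All 6 were below 5% on average in both weeks, as were 86.5% of 12627 covered promoters.

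**Figure D4:**
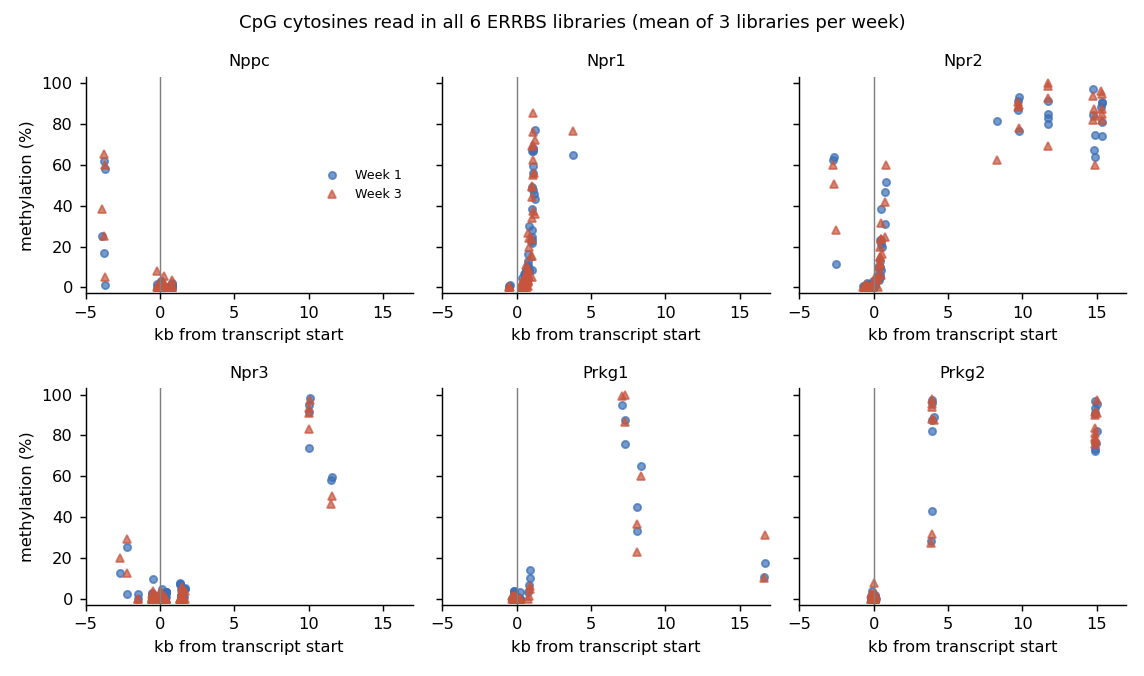
Methylation (y axis, percent, mean of the 3 libraries of a week) of each CpG cytosine read in all 6 ERRBS libraries against its distance from the transcript start (x axis, kilobases, -5 to 17); 81 cytosines farther inside Npr3, Prkg1 and Prkg2 are not drawn. Cytosines at the starts lie near 0 in both weeks, and those farther inside Npr2 and Prkg2 lie mostly above 50%.

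Inside the genes, mean methylation ranged from under 1% in Nppc to 81.3% in Prkg2, and no member's mean differed between weeks by more than 3.4 percentage points. The body of Nppc, at 7 cytosines, averaged 0.690 ± 0.611% at Week 1 and 0.707 ± 0.754% at Week 3 (SD, n = 3). Farther upstream of Nppc, the kilobase from 4427 to 3428 bases before the start was at 29.1 to 33.4% at Week 1 and 32.9 to 40.7% at Week 3 over 5 cytosines, which differed widely among themselves, and no tile between it and the kilobase that holds the start was covered. Npr1 averaged 24.7 ± 0.666% and 23.2 ± 0.318% over 48 cytosines. The weeks did not overlap for Npr1, but the adjusted p was 0.91. Within it, the kilobase that holds the start was at 2.33 to 6.31% in the 6 libraries, and the next kilobase was at 44.7 to 49.6%.

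Npr2 averaged 72.7 ± 2.60% and 73.4 ± 4.88% over 24 cytosines of its body, and Npr3 averaged 36.9 ± 2.47% and 34.1 ± 4.41% over 36. The Npr3 mean mixes low and high stretches. The kilobase from 674 to 1673 bases after its start was at 0.355 to 5.0% in the 6 libraries. The kilobase from 9674 to 10673 bases after it was at 87.0 to 94.3%. Prkg2 averaged 81.3 ± 2.19% and 79.0 ± 5.22% over 27 cytosines. The median over 12710 gene bodies was 62.1%. Prkg1 averaged 56.8 ± 1.11% at Week 1 and 53.4 ± 2.09% at Week 3 over 77 cytosines (SD, n = 3). Its libraries were at 55.6, 57.7 and 57.3% and at 51.5, 55.6 and 53.0%, touching at 55.6%, with an unadjusted p of 0.0571 and an adjusted p of 0.835. None of the member bodies passed, against 1 of 12652 in the genome (0.0079%).

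Divided into kilobases, 32 tiles with at least 3 cytosines lay in the members or up to 5 kilobases before their starts. Of these, 0 passed in the test across 71017 tiles (0% called, 4960 at an unadjusted p under 0.05), and 0 of the 32 had an unadjusted p under 0.05. The lowest adjusted p was 0.714, at chr19:31065001-31066000 in an intron of Prkg1. That tile was at 40.0, 42.8 and 56.0% at Week 1 and 29.7, 30.2 and 39.6% at Week 3, so every Week 3 library was lower. Another intronic Prkg1 tile, chr19:31082001-31083000, was at 0 to 0.500% in all 6 libraries, and it holds the start of Cstf2t, a gene inside the intron.

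**Figure D5:**
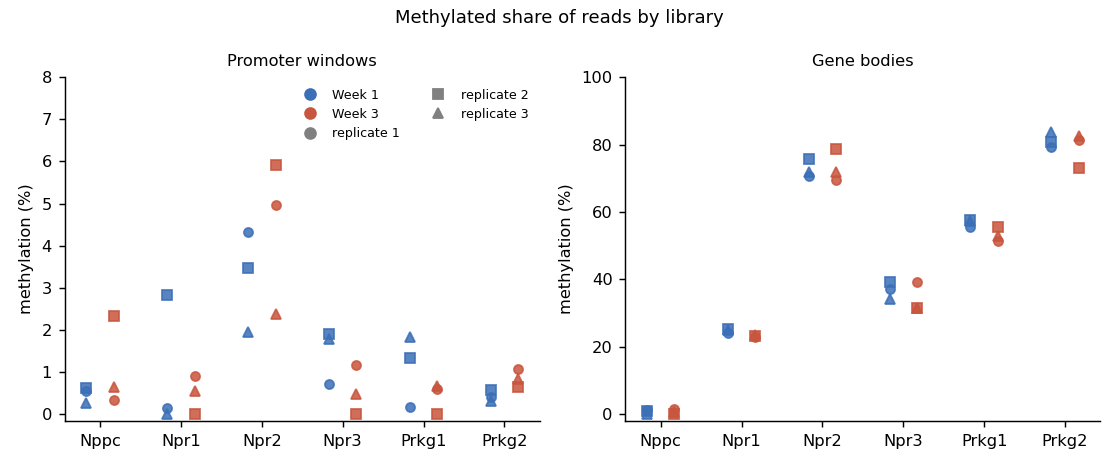
Methylated share of reads (y axis, percent) summed over the promoter window (left, axis to 8%) and the rest of the gene (right, axis to 100%) of each member; each point is 1 ERRBS library. The promoters lie under 6% in every library, while the bodies range from near 0 in Nppc to 73.0 to 83.6% in Prkg2, with the weeks close together.

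Prkg1 and Prkg2 thus had 2.28-fold and 2.95-fold higher RNA at Week 3, and their promoters were below 2% methylated in every library of both weeks. RNA and ERRBS libraries carry the same replicate numbers, but the labels do not say whether a number marks the same culture, and values were not paired between the assays. Coverage limits what could be seen at the starts: the median over the members' cytosines was 28 to 36 reads and the lowest was 10, and Week 1 replicate 3 was the shallowest library, with a median of 17 reads at the shared cytosines.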

How the data were processed

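RNA-seq values were the read counts per RefSeq transcript that the authors deposited. The submitters' processing notes name CASAVA 2.17, STAR and featureCounts with mm10; no source used here gives the strand setting. The ERRBS files that the authors deposited give, per the file headers, each cytosine's coverage (a count of reads) and the percent of reads with C or T; the notes name Bismark. All 24104 shared cytosines of chromosome 19 lay on CpGs of GRCm38.p6. Symbols came from RefSeq tables. Of 30048 transcripts, 394 (1.53% of counts) had no symbol and were kept. A gene's value was its transcript with the highest total count.

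The test of genes used edgeR 4.0.16 under R 4.3.3 (TMM, filterByExpr with a minimum count of 10, robust quasi-likelihood F test) and Benjamini-Hochberg adjustment at 0.05; adjusted p-values of genes are from this test unless DESeq2 (1.42.0) is named. The SE is the log2 change over the square root of F. For methylation, methylated and unmethylated reads were summed over cytosines with at least 10 reads in all 6 libraries (at least 3 per region) and tested with a quasi-binomial logistic model, its dispersion moderated by limma 3.58.1. Ratios were tested in scipy 1.17.1. These steps were tested on simulated data. Intervals cover counting error only.

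Same-numbered RNA libraries deviated together (correlations 0.259, 0.376 and 0.194), against -0.276 to 0.061 for differently numbered ones. The labels do not say that the numbers pair the libraries, and the main test did not pair them. As an alternative, the replicate block changed no call of a member. Members, gene lists and the rule for named genes (all members, list genes that pass or otherwise the up to 4 most abundant, and 2 nearest genes per member) were chosen with earlier results of these data known. Some genes that the rule selects are counted in their list but are not reported here by name. Single marker genes of other cell types fall outside that rule and were named after their values were seen. Alternatives were RLE scaling, DESeq2, no filter, summed transcripts, the block, other coverage minimums and windows, means of sites, and each library left out. RefSeq's promoter table matched 5 of the 6 members by symbol, and its Npr3 entry has another start. Prkg2 was not among them.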

Additional observations from a re-analysis of the deposited data

How the results depend on the processing

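The RNA changes of Npr2, Npr3, Prkg1 and Prkg2 kept their direction and their side of the threshold under RLE scaling, DESeq2, no filter, summed transcripts, the replicate block and each library left out; without 1 library the log2 changes ran from 0.42 to 0.65, 0.05 to 0.26, 1.14 to 1.27 and 1.54 to 1.58. Genes called were 5361, and 6306 with the replicate block, 4464 with DESeq2 and 3980 to 5762 without 1 library. Without TMM, Week 3 levels of Prkg1 and Prkg2 were 18.3 and 31.9 CPM per kilobase. The ratio of Nppc to Npr2 was not run, since libraries at 0 have no logarithm.

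Member methylation passed under no alternative run. Its uncalled differences (Week 3 minus Week 1, percentage points) changed sign in places, and the cause was not tested. They are of pooled reads except where the mean of sites or the replicate block is named. Those 2 are other measures, which weigh cytosines or libraries equally. Promoters: Nppc -0.092 to 0.98 and Npr1 -1.57 to 0.451 without 1 library, and Npr3 0.172 at a coverage minimum of 20. Bodies without 1 library: Nppc -0.483 to 0.243, Npr2 -2.74 to 1.99 and Prkg2 -2.40 to 1.43. As the mean of sites, Nppc was -0.010, Npr1 0.662 and Npr2 1.34; at a minimum of 20 reads, Npr2 was 2.49 and Prkg2 0.136. With the replicate block Npr2 was 0.651. Same-numbered ERRBS libraries correlated at 0.016, 0.048 and 0.014. Differently numbered ones ran from -0.048 to 0.024, the latter for Week 1 replicate 3 with Week 3 replicate 1. Values this near 0 do not show whether same-numbered ERRBS libraries belong together.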
